A study of Mus musculus with 7 samples.

Results

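The circadian clock genes described here were Clock, Npas2, Per1, Per2, Per3, Cry1, Cry2, Nr1d1, Nr1d2 and Dbp, 10 of the 35976 gene rows in the count table. They were chosen by name, and all 10 passed the filter on low counts. The libraries came from the amygdala of male C57BL/6J mice. An adeno-associated virus carried Cas9 under GfaABC1D, a promoter active in astrocytes, with a guide RNA to Egfr (sgEgfr) or to the Rosa locus (sgRosa, the control guide). Both groups expressed the virus for more than 2 weeks and were then restrained in tubes on 7 days, fear-conditioned on 1 day and given extinction sessions on 3 days, so every library is from a stressed animal and none from an unstressed one. Cells were dissociated with papain and enriched with beads to ACSA-2, an astrocyte surface antigen, and there were 4 sgRosa and 3 sgEgfr libraries. The series asks what Egfr does in amygdala astrocytes under chronic stress, and the clock genes were compared between the guides and with each other across samples. The labels used here give no time of day for the collection of any library.

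The mammalian clock is a feedback loop of transcription factors. CLOCK, or its relative NPAS2, pairs with BMAL1, the product of Arntl, and binds E-boxes to switch on the Per, Cry and Nr1d genes and Dbp. PER and CRY proteins return to the nucleus and inhibit that pair, the REV-ERB receptors encoded by Nr1d1 and Nr1d2 repress Arntl, Clock and Npas2 through ROR elements, and DBP acts on D-boxes. In mouse tissues Nr1d1 and Dbp peak in the daytime, the Per genes follow, Cry1 comes late, and Arntl and Npas2 peak when Nr1d1 and Dbp are low. Per1 is also induced by glucocorticoids and by cAMP signalling. Astrocytes hold a working clock of their own.

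The DNA around RefSeq start sites of these genes was searched for the elements that clock factors bind. Of the 10 genes, all but Per2 (9 genes) had RefSeq start sites in the promoter table (GRCm38.p6), with windows from 250 bases before to 50 after each start. The sequences below are the bases from 250 to 11 before the start, 5′ to 3′ on the gene's strand. For Per1 the start used is internal, since its window lies inside the gene in the GENCODE M21 annotation (chr11, 69095217 to 69109960). The 4 are shown because they hold elements that the search found, with the E-box CACGTG in capitals in Per1, the E-box and the related CACGTT (on the opposite strand) in Cry1, 2 D-boxes in Per3 and CACGTT (on the opposite strand) in Nr1d1.
Per1, chr11:69098699-69098938, plus strand: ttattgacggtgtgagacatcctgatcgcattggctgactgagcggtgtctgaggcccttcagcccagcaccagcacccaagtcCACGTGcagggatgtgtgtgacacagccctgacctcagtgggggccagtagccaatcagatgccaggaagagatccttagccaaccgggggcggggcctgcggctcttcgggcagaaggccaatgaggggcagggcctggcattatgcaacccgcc
Cry1, chr10:85185065-85185304, minus strand: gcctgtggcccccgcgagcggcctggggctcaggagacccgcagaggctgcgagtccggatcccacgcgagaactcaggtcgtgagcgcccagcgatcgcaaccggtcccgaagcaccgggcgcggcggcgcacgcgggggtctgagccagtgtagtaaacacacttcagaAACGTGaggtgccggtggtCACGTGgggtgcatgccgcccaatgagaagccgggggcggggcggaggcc
Per3, chr4:151044676-151044915, minus strand: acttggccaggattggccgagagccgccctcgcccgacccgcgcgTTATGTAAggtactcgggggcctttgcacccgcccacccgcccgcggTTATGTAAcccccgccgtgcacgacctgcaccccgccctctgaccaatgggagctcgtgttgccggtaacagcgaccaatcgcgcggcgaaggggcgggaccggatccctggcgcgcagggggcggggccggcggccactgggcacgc
Nr1d1, chr11:98775388-98775627, minus strand: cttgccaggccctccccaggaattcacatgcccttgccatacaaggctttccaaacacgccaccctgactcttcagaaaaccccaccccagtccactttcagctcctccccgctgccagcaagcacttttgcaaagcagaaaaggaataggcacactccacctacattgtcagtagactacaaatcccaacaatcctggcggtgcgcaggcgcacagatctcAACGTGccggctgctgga

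An E-box (CACGTG, which reads the same on both strands) lay 166 bases before an internal start of Per1 and 60 bases before a start of Cry1. Of all 32851 promoter windows, 7.15% held one. The 9 genes had 12 windows together, so the shares of windows given here are not shares of genes. CACGTT, searched on both strands, was found in Cry1, Cry2 (166 bases before its start, sequence not shown) and Nr1d1, against 4.68% of all windows. The D-box, searched as TTATGTAA or TTACGTAA on both strands, was found in Per3 alone among the 9 genes, at 205 and 158 bases before the start, and 1.06% of all windows held one. The cAMP response element TGACGTCA (1.79% of windows), the ROR element core TAGGTCA (2.61%) and a glucocorticoid response element (0.475%) were searched the same way and not found in these windows. The motifs do not share letters with each other in Cry1. The matches describe these letters only.

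Depth ranged from 5852870 to 22579222 counts per library. The libraries sgRosa 3 and sgRosa 4 were nearly as alike as repeated draws from a single library (chi-square of 1.04 per degree of freedom, against 14.8 to 158 for all other pairs), so both were summed to a sample called sgRosa 3+4, and each guide had 3 samples. The labels do not say that libraries came from separate mice, so p-values measure the spread between these samples. The targeted gene, Egfr, averaged 8.92 ± 5.40 CPM with the control guide and 8.15 ± 2.51 CPM with its own (SD, n = 3), which does not check the labels, since small Cas9 deletions need not lower the mRNA. All 15 astrocyte markers were detected and took 0.529% (sgRosa 2) to 1.33% (sgRosa 3+4) of counts, while 12 oligodendrocyte markers took 7.23% to 14.4%, so the levels below are those of a mixture of cells. Fewer cells of a type and less RNA per cell cannot be told apart in such samples.

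No clock gene passed the test between the guides. Of the 10, 0 were called by edgeR's quasi-likelihood test at an adjusted p under 0.05, and 0 of all 14936 genes tested were called (0%). At an unadjusted edgeR p under 0.05 there were 0 clock genes and 2.68% of all genes, and DESeq2 and limma-voom also called 0 clock genes, with 0 at an unadjusted p under 0.05. The CPM ranges of the groups overlapped for all 10 genes, and 7.61% of all genes had ranges that did not overlap. At shares as low as 2.68% and 7.61%, finding 0 among 10 genes does not set the clock genes apart from all genes. Of the 10 log2 fold changes, 4 were positive with a median of -0.07, against 52.9% positive and a median of 0.02 over all genes. The edgeR adjusted p was 0.997 for every clock gene.

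**Figure D1:**
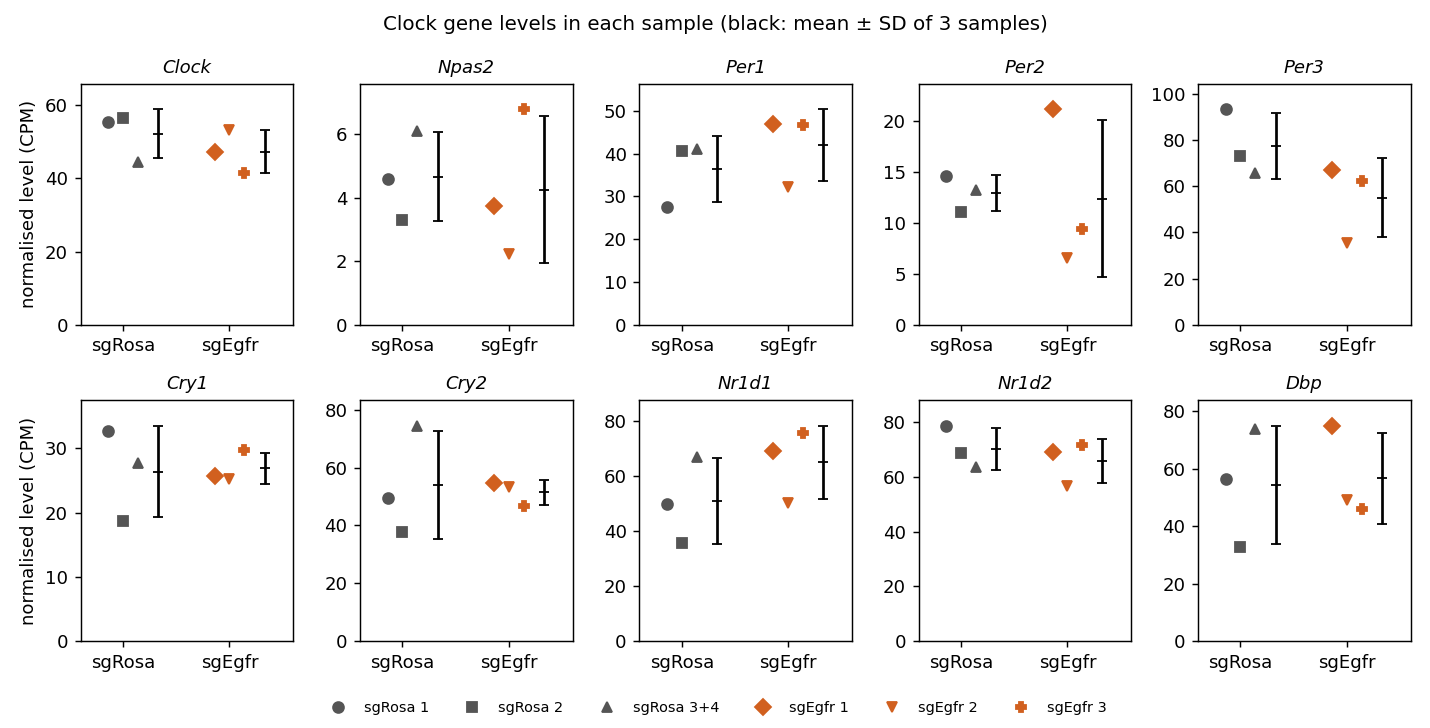
Normalised level (CPM, y axis from 0) of each clock gene in the 3 sgRosa samples (grey) and the 3 sgEgfr samples (orange), with a shape for each sample and the mean ± SD in black. The groups overlap in all 10 panels, sgEgfr 2 is lowest for Per2 and Per3, and sgRosa 2 is lowest for Nr1d1 and Dbp.

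Values in the following paragraphs are CPM, counts relative to the TMM-scaled library total, and are given in the order 1, 2 and 3+4 for sgRosa and 1, 2 and 3 for sgEgfr. Clock, the positive arm's DNA-binding partner of BMAL1, was at 55.5, 56.5 and 44.4 in sgRosa and at 47.3, 53.2 and 41.4 in sgEgfr. Its highest sample was 1.37 times its lowest, the smallest such ratio of the 10 genes. Between the guides it differed by -0.14 on the log2 scale (SE 0.17, 95% confidence interval -0.53 to 0.24). It was -0.25 without sgEgfr 2, -0.24 without sgRosa 3 and 4, -0.05 without sgEgfr 3, -0.08 without sgRosa 2 and -0.09 without sgRosa 1. Npas2, which can stand in for Clock, was the scarcest, at 4.59, 3.29 and 6.10 in sgRosa and 3.74, 2.23 and 6.78 in sgEgfr. The lowest and the highest sample were both sgEgfr, and the log2 fold change was -0.13 (SE 0.47, interval -1.23 to 0.97). The sgEgfr values rested on 59, 34 and 155 counts, where counting error alone is 17.1% at 34 counts and the SD over the 3 samples was 54.6% of their mean. The sgRosa 3+4 value joined 74 counts of sgRosa 3 and 22 of sgRosa 4. The former are 77.1% of the sum (exact 95% binomial interval 67.4% to 85.0%, for counting error only), above the 62.8% that sgRosa 3 holds of all counts. Without sgRosa 3 the log2 fold change of Npas2 was 0.13, without both libraries it was 0.12, without sgEgfr 2 it was 0.16, and without sgEgfr 3 it was -0.64.

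The Per genes encode repressors of the loop, and the 3 of them were ordered differently across samples. Per1 was at 27.6, 40.7 and 41.0 in sgRosa and 46.9, 32.3 and 46.7 in sgEgfr. Its level in sgRosa 1 was the lowest of all, and sgEgfr 2 lay below the other sgRosa samples. The log2 fold change was 0.20 (SE 0.22, interval -0.32 to 0.72), and 0.04 without sgRosa 1. Per2 was at 14.6, 11.1 and 13.2 in sgRosa and 21.2, 6.61 and 9.44 in sgEgfr. The highest and the lowest sample were thus both sgEgfr, 3.20-fold apart, and the SD was 62.2% of the mean in sgEgfr against 13.5% in sgRosa. That lowest value rested on 101 counts, whose counting error is 9.95%. The log2 fold change of Per2 was -0.07 (SE 0.43, interval -1.06 to 0.93), with values of -0.70 to 0.22 when a library was left out. Without sgEgfr 1 it was the former, and without sgEgfr 2 the latter.

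Per3 had the smallest unadjusted p of the 10 genes (0.101 by edgeR). It was at 93.4, 73.0 and 65.9 in sgRosa and 67.3, 35.4 and 62.4 in sgEgfr. Both sgEgfr 2 and sgEgfr 3 lay below every sgRosa sample, and sgEgfr 1 lay just above sgRosa 3+4. The log2 fold change was -0.49 (SE 0.26, interval -1.10 to 0.12). It was -0.27 without sgEgfr 2, which holds the lowest value, and it was negative under all 18 alternative fits. With the oligodendrocyte marker score as a covariate it was -0.49, with an unadjusted edgeR p of 0.0494 and an adjusted p of 0.919.

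The Cry genes encode the cryptochromes, the other repressors of the loop. Cry1 was at 32.7, 18.7 and 27.8 in sgRosa and 25.7, 25.2 and 29.7 in sgEgfr. The 3 sgEgfr samples sat inside the sgRosa range, and the log2 fold change was 0.03 (SE 0.23, interval -0.50 to 0.56). Cry2 was at 49.5, 37.8 and 74.3 in sgRosa and 54.7, 53.3 and 46.6 in sgEgfr. It too varied more among sgRosa samples, with an SD of 34.6% of the mean against 8.41% in sgEgfr, and the log2 fold change was -0.07 (SE 0.25, interval -0.64 to 0.51). Without sgRosa 3 and 4 it was 0.24, and without sgRosa 2 it was -0.27. An RNA on the opposite strand, D930015M05Rik, shares 295 of the 6320 exon bases of Cry2, and the strand setting of the counting is not given in the sources used here.

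Nr1d1 and Nr1d2 encode REV-ERB alpha and beta, nuclear receptors that repress the positive arm. Nr1d1 was at 50.1, 35.9 and 67.1 in sgRosa and 69.4, 50.3 and 75.7 in sgEgfr. Only sgEgfr 2 lay within the sgRosa range, the other 2 sgEgfr samples were above it, and the log2 fold change was 0.35 (SE 0.26, interval -0.25 to 0.96). It was 0.60 without sgRosa 3 and 4, with an unadjusted edgeR p of 0.0459 and an adjusted p of 0.738, and 0.15 without sgRosa 2. With the astrocyte marker score as a covariate it was 0.21, and with the oligodendrocyte score 0.40. At its 3′ end, 263 of the 3077 exon bases of Nr1d1 lie over exons of Thra, a thyroid hormone receptor gene on the opposite strand, so the 2 genes' reads may be mixed there. Nr1d2 was at 78.5, 68.5 and 63.4 in sgRosa and 68.9, 56.6 and 71.5 in sgEgfr, a range of 1.39-fold, with an SD of 10.9% of the mean in sgRosa and 12.1% in sgEgfr. Its log2 fold change was -0.09 (SE 0.16, interval -0.46 to 0.27). It was -0.01 without sgRosa 1, -0.02 without sgEgfr 2, -0.05 without sgRosa 3 and -0.16 without sgEgfr 3 or without sgRosa 3 and 4. Of its 997 counts in sgRosa 3+4, 67.1% came from sgRosa 3 (exact 95% binomial interval 64.1% to 70.0%), above 62.8%. This share was computed for all 10 clock genes, and the interval included 62.8% for each of them except Npas2 and Nr1d2.

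Dbp, a PAR bZIP activator and a direct target of CLOCK and BMAL1, was at 56.4, 32.9 and 73.7 in sgRosa and 74.9, 49.2 and 45.9 in sgEgfr. The top 2 samples were sgEgfr 1 and sgRosa 3+4, 1 of each guide, and sgRosa 2 was lowest. The log2 fold change was 0.06 (SE 0.32, interval -0.68 to 0.80). It was -0.20 without sgRosa 2, -0.19 without sgEgfr 1, 0.35 without sgRosa 3 and 4, -0.11 with the astrocyte marker score as a covariate and 0.14 with the oligodendrocyte score. Sphk2, on the opposite strand, shares 539 of the 2993 exon bases of Dbp.

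**Figure D2:**
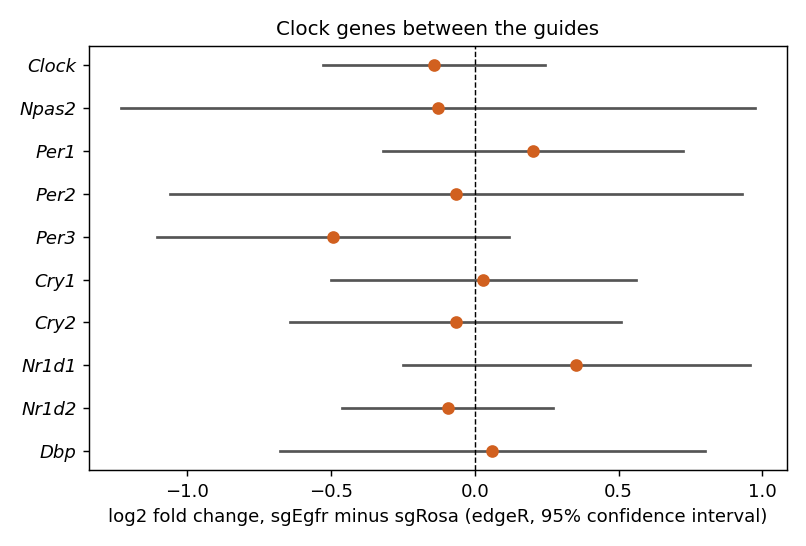
Log2 fold change of each clock gene between sgEgfr and sgRosa (x axis, edgeR; points) with its 95% confidence interval (lines). All 10 intervals include 0, from the narrow interval of Nr1d2 (-0.46 to 0.27) to the wide one of Npas2 (-1.23 to 0.97).

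Set against exon length, the REV-ERB gene Nr1d1 and Dbp were the most abundant of the 10 clock transcripts and Npas2 the least. The length joins all annotated exons of a gene, whichever transcripts were expressed, so the order depends on it. Nr1d1, Dbp and Cry2 share 263, 539 and 295 of these bases with genes on the opposite strand. In CPM per kilobase of exon (GENCODE M21, which may not be the annotation the authors counted on), the means over the 6 samples were 18.9 ± 4.90 for Nr1d1, 18.5 ± 5.49 for Dbp, 12.6 ± 1.37 for Nr1d2, 8.34 ± 1.93 for Cry2 and 7.97 ± 1.43 for Cry1 (SD). Lower down were Per1 at 6.96 ± 1.38, Per3 at 6.89 ± 1.95, Clock at 3.62 ± 0.455, Per2 at 2.17 ± 0.857 and Npas2 at 0.930 ± 0.361 CPM per kilobase. The ranges of each gene and the next in this order overlapped across samples. Clock (3.01 to 4.12 CPM per kilobase) and Cry1 (5.59 to 9.78) did not overlap, nor did Npas2 (0.464 to 1.41) and Clock. These are levels, chosen for display after they were seen, with no test.

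The clock genes did not move as a block across samples. Relative to the mean of the 6 samples on the log2 CPM scale, sgEgfr 2 was low for Per3 (-0.85), Per2 (-0.84) and Npas2 (-0.87), but close to the mean for Dbp (-0.12), Nr1d1 (-0.16) and Cry2 (0.05). The sgRosa 2 sample was low for Dbp (-0.70), Nr1d1 (-0.65), Cry1 (-0.49) and Cry2 (-0.45), and not for Per3 (0.20), Per1 (0.08) or Clock (0.19). In sgRosa 1, Per1 (-0.48) and Per3 (0.55) lay on opposite sides of their means, although the 2 genes are in the same family. In sgEgfr 1, Per2 (0.82) and Dbp (0.49) were both at their highest. Arntl, the partner of Clock and Npas2, was highest in sgEgfr 3 (0.51), as were Npas2 (0.69) and Nr1d1 (0.43), and it was lowest in sgEgfr 1 (-0.38).

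**Figure D3:**
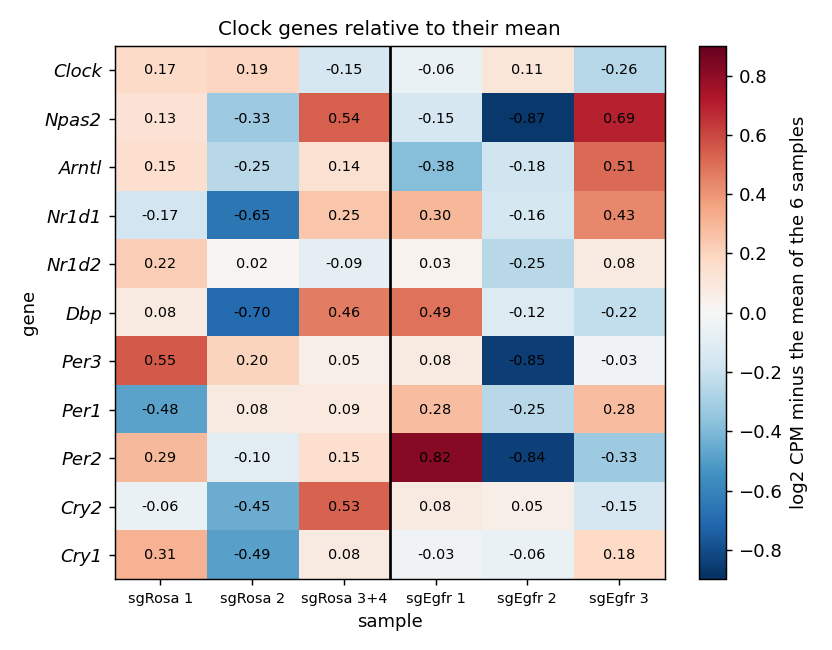
Log2 CPM of each clock gene and of Arntl minus its mean over the 6 samples, with samples in columns (the line divides sgRosa from sgEgfr), genes in rows and the value in each cell. Low values of Per2 and Per3 (-0.84 and -0.85) stand in sgEgfr 2, and low values of Nr1d1 and Dbp (-0.65 and -0.70) in sgRosa 2.

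The relation of the Per genes to Nr1d1 and Dbp was measured across the 6 samples, since these transcripts peak at different times of day. Averaged on that centred scale, the Per genes were at 0.12, 0.06 and 0.10 in sgRosa and 0.40, -0.65 and -0.03 in sgEgfr, while Nr1d1 and Dbp together were at -0.04, -0.67 and 0.36 in sgRosa and 0.39, -0.14 and 0.10 in sgEgfr. The lowest sample of the former was thus sgEgfr 2 and that of the latter sgRosa 2. In all, 11 pairs were computed, with Pearson's r, Spearman's rho, exact two-sided permutation tests and Benjamini-Hochberg adjustment over the 11. None of the 11 passed (smallest adjusted p = 0.229 by the exact permutation test), and 1 had an unadjusted p under 0.05.

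Per1 with Nr1d1 gave r = 0.481 (exact permutation p = 0.351, adjusted 0.713) and rho = 0.771 (exact permutation p = 0.103, adjusted 0.499). Leaving out the 2 samples farthest from the median of Per1 gave r = 0.683, and leaving out sgRosa 2 gave 0.957. Per2 with Nr1d1 gave r = 0.257 (exact permutation p = 0.626, adjusted 0.861) and rho = 0.0286, and r was -0.226 without the 2 farthest samples. Per3 with Nr1d1 gave r = -0.0646 (exact permutation p = 0.931, adjusted 0.940) and rho = -0.543, and r was -0.927 without the 2 farthest, sgRosa 1 and sgEgfr 2. As deviations from the guide means the sign of the Per3 pair turned (r = 0.386). None of these 3 pairs passed the test, and the differences between them were not tested. With a sample left out, r ranged from 0.327 to 0.957 for Per1, from -0.00524 to 0.494 for Per2 and from -0.555 to 0.167 for Per3.

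Among the Per genes, Per2 had the largest r with Dbp (r = 0.575, exact permutation p = 0.225, adjusted 0.619; rho = 0.714, exact permutation p = 0.136). It was 0.577 without the 2 samples farthest from the median of Per2 and 0.623 within the guides. Per1 with Dbp gave r = 0.0832 (exact permutation p = 0.858, adjusted 0.940; rho = 0.314), and r was 0.301 without its 2 farthest samples. Per3, the gene with D-boxes in the sequence above, gave r = 0.0698 with Dbp (exact permutation p = 0.940, adjusted 0.940; rho = 0.0857), and r was -0.451 without its 2 farthest samples. Nr1d1 and Dbp, both daytime genes, gave r = 0.696 (exact permutation p = 0.115, adjusted 0.619) and rho = 0.371. That r rested on which samples entered, at 0.239 without sgRosa 2 and 0.986 without sgEgfr 3.

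**Figure D4:**
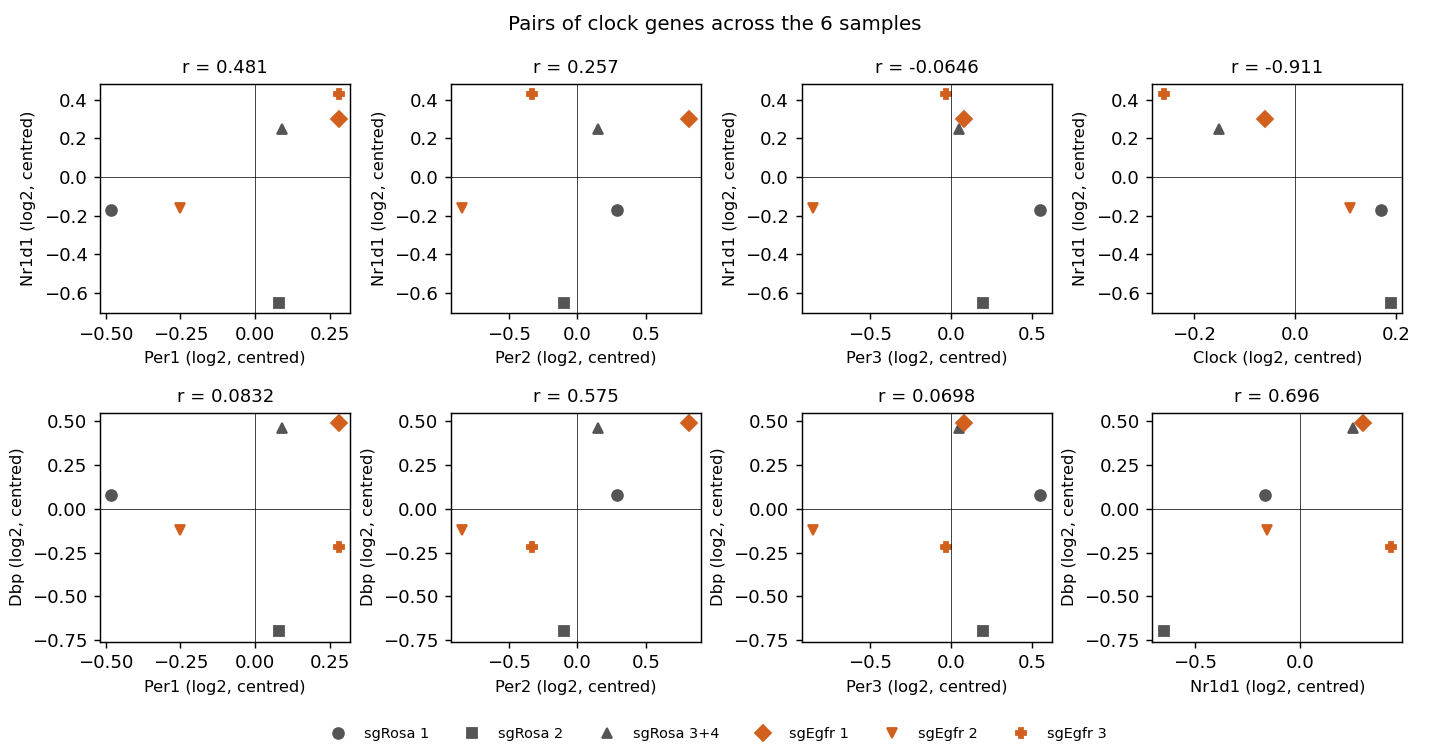
Centred log2 CPM of pairs of clock genes in the 6 samples (sgRosa grey, sgEgfr orange, a shape for each sample), with Pearson's r above each panel. Points are scattered for the Per genes against Nr1d1 and Dbp, and fall along a line from sgRosa 2 to sgEgfr 3 for Clock against Nr1d1 (r = -0.911).

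Clock and Nr1d1 ran in opposite directions, with the largest r in size of the 11 pairs. It was -0.911 (exact permutation p = 0.0208, adjusted 0.229), with rho = -0.943 (exact permutation p = 0.0167, adjusted 0.183). The value was -0.907 without the 2 samples farthest from the median of Clock, -0.893 within the guides, and between -0.955 and -0.890 with each sample left out. Ordered from the highest r with Nr1d1 down, Clock ranked 14662 of 14935 other genes. Many genes thus had a more negative r with Nr1d1 than Clock, and the value is not particular to this pair. Npas2, which REV-ERB also represses, went the other way, with r = 0.614 against Nr1d1 (exact permutation p = 0.204, adjusted 0.619; rho = 0.600; r = 0.586 without the 2 farthest). Clock with Dbp gave r = -0.437 (exact permutation p = 0.389, adjusted 0.713; rho = -0.314) and Npas2 with Dbp r = 0.285 (exact permutation p = 0.575, adjusted 0.861; rho = 0.143). Without the 2 farthest samples these were -0.824 and 0.638.

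Over all 45 pairs of the 10 genes, a family added after the data were seen, 31 values of r were positive and none passed (smallest adjusted p = 0.521, exact permutation test). With 6 samples the lowest possible permutation p is too high for a single pair among 45 to pass alone. The lack of a call therefore cannot decide whether any 1 pair is related. Besides Clock with Nr1d1, the pairs with an unadjusted p under 0.05 were Per3 with Nr1d2 (r = 0.903, rho = 0.600, exact permutation p = 0.0306 for r) and Cry2 with Dbp (r = 0.863, rho = 0.886, exact permutation p = 0.0347 for r). The Per3 pair rested on sgRosa 1 and sgEgfr 2, without which r was -0.178. For the Cry2 pair r was 0.686 without sgRosa 2 and sgRosa 3+4.

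Markers of cell types moved with several of these genes. The astrocyte score, the mean centred log2 CPM of the 15 markers, was 0.0384, -0.864 and 0.453 in sgRosa and 0.253, -0.0327 and 0.153 in sgEgfr. Its r was 0.889 with Dbp (rho = 0.771, exact permutation p = 0.0139 for r, adjusted 0.194 over 50 relations) and 0.887 with Nr1d1 (rho = 0.714, exact permutation p = 0.0194 for r, adjusted 0.194). Without sgRosa 2 and sgRosa 3+4 these were 0.622 and 0.848. The ependymal score (8 markers, 0.00379% of counts in sgEgfr 2 to 0.115% in sgEgfr 3) ran from -3.15 in sgRosa 2 to 3.97 in sgEgfr 3. Its r was -0.931 with Clock (rho = -0.943, exact permutation p = 0.00694 for r, adjusted 0.194), 0.895 with Npas2 (rho = 0.886, exact permutation p = 0.0181, adjusted 0.194) and 0.869 with Nr1d1 (rho = 0.886, exact permutation p = 0.0250, adjusted 0.208). Without sgRosa 3+4 and sgEgfr 3 these were -0.670, 0.634 and 0.860. The oligodendrocyte score gave r = -0.917 with Npas2 (rho = -0.943, exact permutation p = 0.0125, adjusted 0.194), and -0.734 without sgRosa 2 and sgEgfr 2. None of the 50 relations, which join 5 list scores to the 10 genes, passed after adjustment. With 6 samples a single relation among 50 could not pass alone, however close it was, so this cannot decide whether any 1 relation exists. The part of cell content in the relations between the clock genes was not tested.

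**Figure D5:**
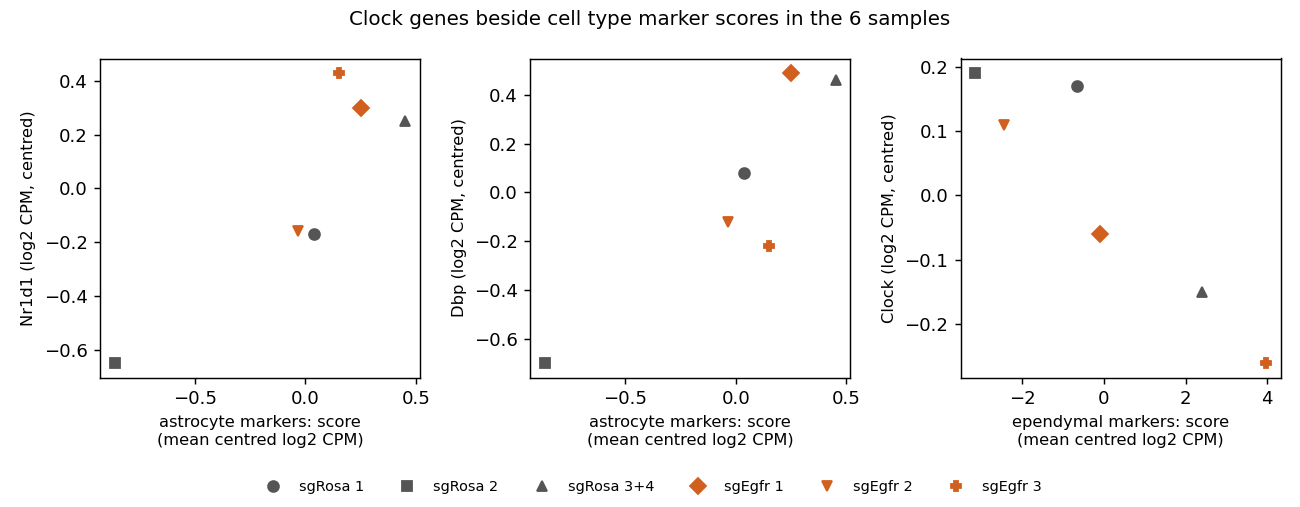
Centred log2 CPM of Nr1d1 and Dbp against the astrocyte marker score, and of Clock against the ependymal marker score, in the 6 samples (sgRosa grey, sgEgfr orange). The sgRosa 2 sample lies at the low end for Nr1d1 and Dbp (astrocyte score -0.864), and Clock falls from sgRosa 2 (ependymal score -3.15) to sgEgfr 3 (3.97).

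Per1 was set beside genes that respond to glucocorticoids and to stimulation, since it shares such inputs. The glucocorticoid score (15 genes, Per1 not among them) was -0.843, -0.0208 and -0.140 in sgRosa and 0.222, 0.285 and 0.497 in sgEgfr, and sgRosa 1 was lowest for both that score and Per1. The r was 0.720 (rho = 0.486, exact permutation p = 0.0972, adjusted 0.455), and -0.305 without sgRosa 1 and sgEgfr 3. All 15 genes of that list had positive log2 fold changes, with a median of 0.50, and 0 were called by edgeR, with 4 at an unadjusted p under 0.05, against 52.9% positive and 2.68% at that p over all genes. Most members of several other lists were positive too, with 0 calls in each. All 11 neuron markers tested (median 0.48), all 12 microglia markers (0.41) and all 8 ependymal markers (1.51) had positive log2 fold changes, as did 8 of 10 heat shock genes (0.35) and 13 of 16 immediate early genes (0.77, with 6 at an unadjusted edgeR p under 0.05). So were 9 of 12 endothelial and 6 of 8 oligodendrocyte precursor markers, against 9 of 15 astrocyte and 6 of 12 oligodendrocyte markers. An unadjusted edgeR p under 0.05 was also found for 4 endothelial, 3 neuron and 1 oligodendrocyte precursor marker and for 2 heat shock genes. It was found for 0 microglia, ependymal, astrocyte or oligodendrocyte markers. Immediate early genes, which dissociation also switches on, gave r = 0.146 with Per1 (rho = 0.143, exact permutation p = 0.779) and r = -0.673 with Per2 (rho = -0.714, exact permutation p = 0.140, adjusted 0.501). For Per1 r was -0.000185 and for Per2 -0.896 without sgRosa 3+4 and sgEgfr 3.

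Likeness to all other genes across the 6 samples was computed for Nr1d1, Dbp, Per1 and Per2, and the nearest genes of these 4 were outside the clock lists used here. By Pearson's r of log2 CPM, the nearest 3 of 14935 other genes were Slc25a20 (0.995), Ptpn21 (0.994) and Cdc25b (0.993) for Nr1d1, and Mical1 (0.996), Rangrf (0.995) and Proca1 (0.991) for Dbp. They were Ak6 (0.987), Rbm4 (0.984) and Gpsm3 (0.976) for Per1, and Disc1 (0.987), Mob1a (0.976) and LOC108168068 (0.975) for Per2. With 6 samples, 86 genes had an r above 0.95 with Nr1d1 and 45 with Dbp, so such values are a description of these libraries. Dbp ranked 2190 among the genes most like Nr1d1, and Cry2 ranked 346 among those most like Dbp.

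The other genes of the clock were also without a call. Of 11 tested factors of the accessory loops, 6 log2 fold changes were positive and 0 genes passed edgeR's test, with a median of 0.01. The levels of Tef, a relative of Dbp that also binds D-boxes, were 180, 158 and 149 CPM in sgRosa against 144, 77.8 and 128 CPM in sgEgfr, which do not overlap. Its log2 fold change was -0.48 (SE 0.24, unadjusted p = 0.0836, edgeR adjusted p = 0.997). Like Per3, it was lowest in sgEgfr 2 and highest in sgRosa 1. Bhlhe41 and Bhlhe40, the DEC repressors that compete for E-boxes, had log2 fold changes of -0.47 (SE 0.28) and 0.46 (SE 0.31). The levels of Arntl were 19.1, 14.4 and 18.9 CPM in sgRosa against 13.1, 15.1 and 24.4 CPM in sgEgfr, and its log2 fold change was 0.01 (SE 0.28).

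Kinases and ubiquitin ligases that set the life of PER and CRY proteins had 3 of 12 log2 fold changes positive, a median of -0.16 and 0 calls by edgeR. Prkaa2, an AMPK subunit that phosphorylates cryptochromes, differed by -0.42 on the log2 scale (SE 0.28), and the casein kinases Csnk1e and Csnk1d had -0.23 (SE 0.17) and 0.16 (SE 0.13). Csnk1d did not overlap between the guides, at 106, 106 and 110 CPM in sgRosa and 120, 113 and 126 CPM in sgEgfr. Co-regulators had 2 of 9 positive, a median of -0.13 and 0 calls, with Kdm5a at -0.33 (SE 0.15), Ncor1, the corepressor of REV-ERB, at -0.37 (SE 0.20), Sfpq at -0.41 (SE 0.24) and Wdr5 at 0.21 (SE 0.24). Clock outputs had 8 of 9 positive, a median of 0.23 and 0 calls. Among these were Por, the electron donor of cytochrome P450 enzymes, at 0.37 (SE 0.18), Alas1, the entry enzyme of haem synthesis, at 0.23 (SE 0.14), Usp2 at 0.43 (SE 0.34) and Wee1, a cell cycle kinase, at 0.41 (SE 0.49). In these 4 lists 0 of 41 tested genes had an unadjusted edgeR p under 0.05, and 6 had ranges that did not overlap between the guides, against 7.61% of all genes.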

How the data were processed

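Each library started from 5 ng of RNA. The authors deposited raw read counts for every gene in 1 joint table, and per-library files repeat the same values. The submitters' processing notes name mm10, featureCounts 2.0.1, STAR 2.7.5c, edgeR 3.42.4, MultiQC 1.11, FastQC 0.11.9 and fastp 0.23.2. The annotation, the strand setting and the handling of reads that map to several places are not given in the sources used here. Depth was 5852870 to 22579222 counts per library. The binomial intervals for the share of sgRosa 3 cover counting error only. All 7 libraries entered, with sgRosa 3 and 4 summed.

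Genes were filtered with filterByExpr (minimum count 10, minimum total 15), scaled with TMM and fitted with glmQLFit in edgeR 4.0.16 (R 4.3.3). The guide was the sole term, tested with glmQLFTest and Benjamini-Hochberg adjustment over 14936 genes. Calls were made at an adjusted p under 0.05. Log2 CPM for scores and correlations used a prior count of 2. The script was tested on simulated counts. Members and lists were chosen with earlier results of these data known. All 10 clock genes are named. Of the other clock lists the 4 genes with the smallest p were named in each, except 2 that are not reported here, with Arntl, and for 4 genes the 3 most similar. Alternatives used DESeq2 1.42.0, limma-voom (limma 3.58.1), other scalings and filters, the replicate block, 2 covariates, 7 separate libraries and left-out libraries. Exon positions came from GENCODE M21 (GRCm38), promoters from RefSeq. Python 3.11.15 and matplotlib 3.10.9 were used.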

Additional observations from a re-analysis of the deposited data

How the results depend on the processing

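The clock genes, the other clock genes and all genes had 0 calls under all 19 alternatives tried, and 0 of the 11 pairs passed under all 10. Where a sample was left out, the lowest possible permutation p was too high for a single pair of the 11 to pass alone. Those settings therefore could not test whether a pair passes. Of 180 member log2 fold changes, 17 changed sign and 163 did not. Nr1d1 and Per1 were positive and Clock, Per3 and Nr1d2 negative in every fit. With 7 separate libraries Cry1 was at -0.000498 and Dbp at -0.0572, and with the astrocyte score as a covariate they were at -0.0721 and -0.106. With a library left out, Cry1 ranged from -0.171 to 0.213, Cry2 from -0.268 to 0.00183, Dbp from -0.201 to 0.192, Npas2 from -0.641 to 0.159 and Per2 from -0.695 to 0.217. Leaving out sgRosa 3 and 4 together gave 0.117 for Npas2, 0.240 for Cry2 and 0.345 for Dbp.

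Among the pairs 6 of 110 values changed sign. As deviations from the guide means Per3 with Nr1d1 was at 0.386. With a sample left out, Per3 with Nr1d1 ranged from -0.555 to 0.167, Per2 with Nr1d1 from -0.00524 to 0.494, Per1 with Dbp from -0.213 to 0.282 and Per3 with Dbp from -0.101 to 0.360. The cause of these changes was not tested.

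The deviations of same-numbered samples correlated at -0.106, 0.517 and 0.549. The sgRosa 2 and sgRosa 3+4 samples correlated best with their same-numbered sgEgfr samples, whereas sgRosa 1 correlated best with sgEgfr 3 (0.0841). The replicate numbers were thus not shown to pair all samples, and whether same-numbered samples were handled together was not tested. With the replicate block 0 genes were called, 705 had an unadjusted edgeR p under 0.05 (401 without it), and Per3 had a log2 fold change of -0.53 (unadjusted p = 0.0417, edgeR adjusted p = 0.953). The test of all genes gave 500 at an unadjusted p under 0.05 with DESeq2, 418 with limma-voom, 659 with the oligodendrocyte score as a covariate, 685 without a filter and 960 without sgRosa 3 and 4. With 1 library left out it ranged from 236 (sgRosa 1) to 684 (sgEgfr 3), with 294 without sgEgfr 2. Counting error limits Npas2, at 34 counts in sgEgfr 2, more than the other 9 genes.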
